A study of Mus musculus with 816 samples.

Results

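The 36 genes described here carry glucose into the cell, break it down to pyruvate and lactate, sense oxygen, or are textbook targets of hypoxia-inducible factor (HIF). They were chosen from a fixed list of glycolysis and HIF target genes, with no expression value in the rule, and all 36 were found among the 45581 genes of the culture table and the 29858 genes of the mouse table. The 36 fall into 3 glucose transporters, 3 hexokinases, 8 genes of the first stage of glycolysis, 5 of the second stage, 5 of lactate and pyruvate handling, 3 of oxygen sensing and 9 other HIF targets. RNA was sequenced from the 3′ end of transcripts, in 784 wells of cultured mouse microglia under 98 conditions and in microglia taken from 32 mice. Values are CPM, the reads of a gene scaled to 1000000 mapped reads per library, and a difference is given as a log2 fold change of log2(CPM + 1) means unless stated otherwise.

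The cultures were commercial neonatal mouse brain microglia of 3 lots grown on 10 multi-well plates, to which a stimulus was added in fresh medium. The groups used were untreated cultures at 24 h (40 wells) and 72 h (25 wells), and LPS, the bacterial lipopolysaccharide sensed by TLR4, at 0.0001 ug/ul for 4 h (7 wells), 24 h (18 wells) and 72 h (13 wells). LPS at the lower dose of 1e-05 ug/ul for 24 h (7 wells) was compared with the same dose plus 5 nM rapamycin (7 wells), an inhibitor of the growth kinase mTOR, and rapamycin was also given alone (11 wells). P3C, the synthetic lipopeptide Pam3CysSerLys4, was given at 0.001 ug/ul for 24 h (6 wells) and 72 h (6 wells), and interferon gamma (IFNg) at 0.0001 ug/ul for 24 h (9 wells) and 72 h (6 wells). In mice, 4 female C57BL/6 animals of 2 months received 2 mg/kg LPS and were compared after 4 h with 4 animals given PBS, and 13 untreated male C57BL/6 mice of 22 months were compared with 11 of 2 months. Brain cells of the mice were isolated with magnetic beads against CD11b, a surface protein that other myeloid cells also carry. Estimated depth was 1000000 to 38170000 mapped reads per culture (median 4670000) and 2360000 to 7780000 per mouse (median 4080000), so that a value of a few CPM rests on few reads. All 72 h wells came from 1 lot, and from plates without untreated 24 h wells, so time, lot and plate cannot be told apart where the times are compared, and no untreated wells were measured at 4 h. The study's methods call the cultures biological replicates and, for a core set of conditions, place them on different experimental days, but do not give a separate cell preparation for each well, so the p-values measure the spread between wells, part of which may be technical.

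Glycolysis splits glucose into pyruvate, with an early stage that spends ATP and a later stage that yields it, and lactate dehydrogenase A turns pyruvate into lactate, which leaves the cell through monocarboxylate transporters. HIF is a pair of proteins whose alpha subunit is marked for destruction by prolyl hydroxylases (Egln1, Egln3) when oxygen is present. When it is stable it binds short DNA elements near glycolysis genes and near genes of blood vessel growth, mitochondrial turnover and oxygen sensing itself, and in activated macrophages and microglia inflammatory signals also raise Hif1a transcription.

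Because HIF binds the letters ACGTG or GCGTG, the DNA just before the start of the members was examined for them. Windows of 250 bases before to 50 bases after each start were taken from RefSeq, mouse build GRCm38.p6, and found for 34 of the 36 members (50 windows, since a gene can have several starts). The windows of Slc2a3 and Ndrg1 were not in the table. ACGTG or GCGTG on either strand (CACGT or CACGC as printed, with CACGTG counted on both strands) occurred in 82.0% of the members' windows (41 of 50) and in 43.8% of all 32851 windows of 27025 genes. Among members called higher with P3C at 72 h the share was 82.8% (24 of 29 windows), and among the remaining members 81% (17 of 21). At least 3 matches stood in 24.1% of the windows (7 of 29) of the members called higher and in 42.9% (9 of 21) of those of the members not called. At least 2 matches stood in 65.5% and 57.1%, and ACGTG in 62.1% and 52.4%. Over all windows the shares were 8.93% for at least 3 matches, 20.6% for at least 2 and 19.6% for ACGTG. A match is a description of the sequence and not a bound site. The windows shown belong to members that the results below turn on: the glucose transporters Slc2a1 at chr4:119108495-119108794 (plus strand) and Slc2a6 at chr2:27027949-27028248 (minus strand), the enzymes Pgk1 at chrX:106186850-106187149 (plus) and Ldha at chr7:46845554-46845853 (plus), the prolyl hydroxylase Egln3 at chr12:54203825-54204124 (minus), and the HIF targets Bnip3 at chr7:138909457-138909756 (minus) and Adm at chr7:110627407-110627706 (plus). Each is printed 5′ to 3′ on the strand of its gene with the searched letters in capitals.
Slc2a1: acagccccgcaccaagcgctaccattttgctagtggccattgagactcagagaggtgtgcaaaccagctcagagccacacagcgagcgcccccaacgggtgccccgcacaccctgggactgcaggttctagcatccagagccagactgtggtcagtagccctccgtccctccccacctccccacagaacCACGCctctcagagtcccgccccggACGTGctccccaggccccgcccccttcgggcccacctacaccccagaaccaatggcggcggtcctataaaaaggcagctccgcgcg
Slc2a6: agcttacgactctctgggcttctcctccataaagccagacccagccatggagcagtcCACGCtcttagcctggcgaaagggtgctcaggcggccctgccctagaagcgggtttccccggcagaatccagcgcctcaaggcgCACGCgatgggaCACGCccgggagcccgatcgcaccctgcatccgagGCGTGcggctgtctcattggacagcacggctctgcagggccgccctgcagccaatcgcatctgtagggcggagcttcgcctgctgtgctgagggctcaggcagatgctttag
Pgk1: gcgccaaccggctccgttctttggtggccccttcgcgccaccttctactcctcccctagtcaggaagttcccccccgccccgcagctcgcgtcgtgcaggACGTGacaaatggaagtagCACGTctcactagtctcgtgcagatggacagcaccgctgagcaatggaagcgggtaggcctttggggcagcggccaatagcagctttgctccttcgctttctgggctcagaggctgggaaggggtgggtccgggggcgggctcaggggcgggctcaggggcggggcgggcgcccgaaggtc
Ldha: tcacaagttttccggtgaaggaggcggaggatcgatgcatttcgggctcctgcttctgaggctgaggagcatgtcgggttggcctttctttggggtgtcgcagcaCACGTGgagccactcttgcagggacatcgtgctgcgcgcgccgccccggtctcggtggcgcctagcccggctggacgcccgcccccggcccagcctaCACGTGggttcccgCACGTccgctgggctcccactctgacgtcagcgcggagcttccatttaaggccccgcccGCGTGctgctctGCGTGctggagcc
Egln3: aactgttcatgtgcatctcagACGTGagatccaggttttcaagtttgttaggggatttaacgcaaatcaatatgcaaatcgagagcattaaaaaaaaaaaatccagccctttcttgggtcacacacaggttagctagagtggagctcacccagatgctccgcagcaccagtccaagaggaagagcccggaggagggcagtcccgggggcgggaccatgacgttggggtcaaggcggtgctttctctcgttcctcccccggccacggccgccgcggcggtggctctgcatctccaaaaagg
Bnip3: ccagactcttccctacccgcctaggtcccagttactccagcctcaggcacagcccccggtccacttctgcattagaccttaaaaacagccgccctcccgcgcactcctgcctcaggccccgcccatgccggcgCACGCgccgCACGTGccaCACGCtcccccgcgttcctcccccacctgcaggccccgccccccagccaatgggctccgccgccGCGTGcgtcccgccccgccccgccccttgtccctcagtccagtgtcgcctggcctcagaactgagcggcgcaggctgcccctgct
Adm: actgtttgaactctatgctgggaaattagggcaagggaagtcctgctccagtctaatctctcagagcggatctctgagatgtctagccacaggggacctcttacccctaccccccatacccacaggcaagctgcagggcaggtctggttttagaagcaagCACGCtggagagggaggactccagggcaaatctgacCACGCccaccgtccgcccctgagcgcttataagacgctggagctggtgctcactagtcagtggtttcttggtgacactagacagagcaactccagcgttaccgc
The printed window of Ldha held 7 matches and its other window 2. The window of Bnip3 held 5 matches and that of Slc2a6 4, while Slc2a1, Pgk1 and Adm held 2 each and Egln3 held 1. The 2 windows of Vegfa held 0 and 2 matches.

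The cultures expressed microglia markers. None of the 10 markers (among them Tmem119, P2ry12 and Cx3cr1) was at 0 in all wells of any group. Their sum had a median of 56916 CPM in mice given PBS, and the difference from cultures was not tested, since the tables were normalized separately. In untreated wells at 24 h the markers summed to 4410.4 to 11125 CPM (median 7262). The sum was lower after stimulation, at 1639 to 4293 CPM (median 2560.4) with LPS and 2689.6 to 3948 CPM (median 3357) with P3C at 24 h, and at 2367 to 3088 CPM (median 2909) with P3C against 1520.3 to 8311 CPM (median 5222) without at 72 h. The 4 proliferation markers summed to 39.7 to 988 CPM (median 516) in untreated wells at 24 h, against medians of 61.6 CPM with LPS, 39.9 CPM with P3C and 192 CPM with IFNg. At 72 h their median was 68.0 CPM without and 139.5 CPM with P3C, so they were lower with P3C at 24 h and higher at 72 h. The 3 markers of perivascular macrophages had medians of 74.7 CPM in untreated wells, 4.87 CPM with LPS and 1.66 CPM with P3C at 24 h, and of 35.6 CPM without and 5.01 CPM with P3C at 72 h. The 4 monocyte markers had medians of 37.9 CPM in untreated wells, 8.74 CPM with LPS and 8.91 CPM with P3C at 24 h. In bulk samples, fewer cells of a type and less RNA per cell cannot be told apart, and the part of these shifts in the results for the 36 genes was not tested. Markers of astrocytes, neurons and erythrocytes summed to at most 35.1 CPM in any culture of these groups, and the highest sums of the remaining lists from outside the myeloid lineage were 137.5 CPM for oligodendrocytes, 187 CPM for endothelial cells and 385 CPM for fibroblasts and pericytes. The 5 neutrophil markers summed to 0 to 9.18 CPM (median 1.38) in untreated wells at 24 h and 0 to 9.16 CPM (median 0.609) at 72 h. Among them S100a9, Ngp and Retnlg were at 0 in all untreated wells.

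**Figure D1:**
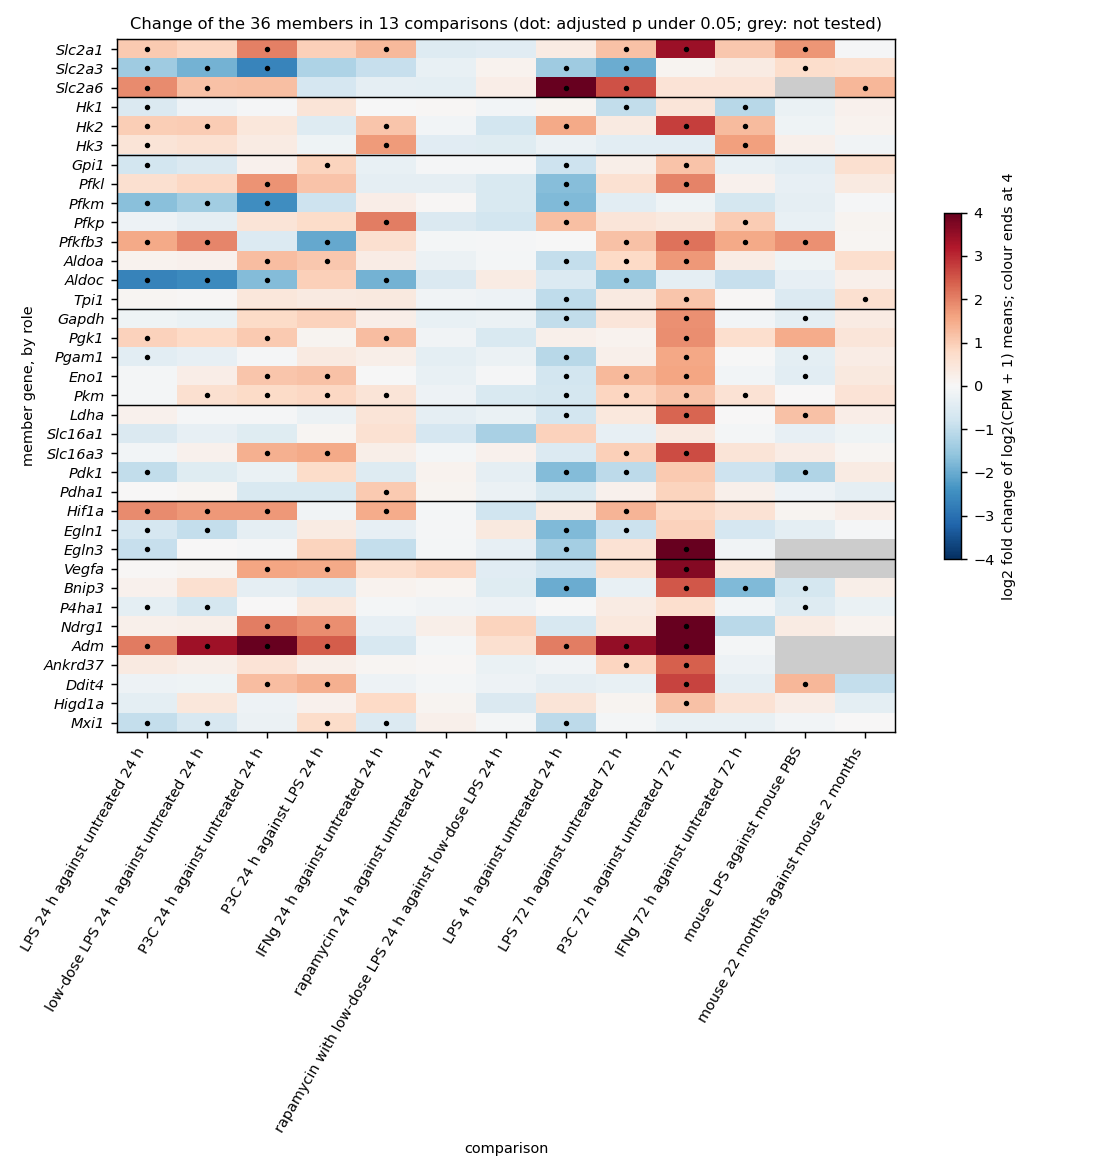
Log2 fold change of the 36 members (lines, ordered by role) in 13 comparisons (columns), with red for higher, blue for lower, the colour ending at 4 in both directions, a dot where the adjusted p was under 0.05 and grey where a member was not tested. The column of P3C at 72 h holds 22 dots, all red, and that of LPS at 4 h holds 16 blue and 4 red dots.

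The first question was how the pathway answered LPS over a day. At 24 h, LPS raised 2 of 3 glucose transporters (Slc2a6 and Slc2a1), 2 of 3 hexokinases (Hk2 and Hk3) and the regulator Pfkfb3, together with Pgk1, Hif1a and the secreted peptide gene Adm. The largest falls were those of Aldoc, Pfkm, Slc2a3 and Pdk1. Of the 36 members, 8 were higher and 11 lower at an adjusted p under 0.05, where 8.97% of the 16942 genes tested were higher and 21% lower. The median of the members was -0.08, against -0.14 over all genes tested. The enzymes of the second stage were mostly level, with 1 of 5 higher (Pgk1) and 1 of 5 lower (Pgam1, -0.42).

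Hif1a, the oxygen-regulated subunit of HIF, ranged from 261 to 808 CPM (median 492.9) in the 18 LPS wells and from 77.6 to 284 CPM (median 129.6) in the 40 untreated wells, and 17 of the 18 LPS wells lay above all untreated wells. Its log2 fold change was 1.88 (SE 0.20, adjusted p = 1.81e-18). Slc2a6, a hexose transporter of intracellular membranes, ranged from 13.1 to 90.8 CPM (median 30.9) against 0.114 to 21.4 CPM (median 7.75), with 15 of 18 LPS wells above all untreated wells and a log2 fold change of 1.88 (SE 0.31, adjusted p = 2.6e-08). Adm, which encodes the vessel-dilating peptide adrenomedullin, was near 0 without LPS. It ranged from 0 to 4.02 CPM (median 0.949) in untreated wells and from 0 to 49.8 CPM (median 8.38) in LPS wells, 12 of which lay above all untreated wells, and its log2 fold change was 2.06 (SE 0.28, adjusted p = 1.81e-11). Untreated plate means of Adm were at most 1.25 CPM at 24 h and at most 1.69 CPM at the later time. Adm therefore met the filter on low values mainly through stimulated wells. The calls of Adm in cultures, which the counts of called members include, are a description. Pfkfb3, which makes the activator of phosphofructokinase, spread widely, from 139 to 1078 CPM (median 238) against 18.4 to 227 CPM (median 111), with all 18 LPS wells above the untreated median and a log2 fold change of 1.52 (SE 0.21, adjusted p = 3.14e-11). Hk2, the inducible hexokinase, ranged from 27.1 to 75.97 CPM (median 45.7) against 3.87 to 54.4 CPM (median 24.3), and all 18 LPS wells again lay above the untreated median (log2 fold change 0.98, SE 0.24, adjusted p = 0.000402). Pgk1, a kinase of the second stage, ranged from 115 to 425 CPM (median 212) against 3.16 to 236 CPM (median 142), and the groups overlapped (log2 fold change 0.93, SE 0.22, adjusted p = 0.000149). Pgk1 is uncertain throughout, because the near-identical copy Pgk1-rs7 held 30.4% of the summed level of the pair over all cultures. For the other members with a listed copy, the copy held at most 0.875% of the pair.

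Among the members that fell, Aldoc, the aldolase of brain, ranged from 0 to 11.3 CPM (median 0.320) with LPS and 0.309 to 34.5 CPM (median 11.9) without, with all 18 LPS wells under the untreated median and a log2 fold change of -2.68 (SE 0.34, adjusted p = 5.22e-13). Pfkm, the muscle phosphofructokinase, ranged from 0 to 12.01 CPM (median 2.73) against 1.51 to 31.8 CPM (median 9.79), and 17 of 18 LPS wells lay under the untreated median (log2 fold change -1.66, SE 0.35, adjusted p = 1.89e-05). Slc2a3, a high-affinity glucose transporter, ranged from 0 to 20.7 CPM (median 3.22) against 0.991 to 57.6 CPM (median 9.65), again with 17 of 18 wells under the untreated median (log2 fold change -1.42, SE 0.32, adjusted p = 6.85e-05). Pdk1, a kinase that inhibits pyruvate dehydrogenase, ranged from 0.698 to 32.4 CPM (median 5.52) against 1.84 to 36.2 CPM (median 14.3), and 15 of 18 LPS wells lay under the untreated median (log2 fold change -0.99, SE 0.28, adjusted p = 0.00231). Mxi1, Egln3, Gpi1, Egln1, Hk1, Pgam1 and P4ha1 fell by less, from -0.96 to -0.39. Of the 19 called members, 10 differed in the same direction on each of the 6 plates that held both groups. The others were Hk3, Pgk1, Pdk1, Mxi1, Egln3, Gpi1, Egln1, Hk1 and Pgam1, and a model with plate did not call Hk1 and Egln3. Median-ratio scaling, which centres each sample on its typical gene, moved the share of higher genes among all calls from 29.98% to 41.8% and gave 11 higher and 7 lower members: Hk1, Pgam1, Egln1 and P4ha1 were no longer called, and Pfkl, Aldoa and Ldha became called.

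In each list around the pathway given here, more genes fell than rose. The counts stand beside 8.97% of all genes higher and 21% lower. Among 15 tested other glycolysis genes 0 rose and 7 fell, led by Ldhb, the lactate dehydrogenase subunit of oxidative tissues, at 5.66 against 38.1 CPM (log2 fold change -2.69, adjusted p = 3.63e-23). Of 21 other HIF pathway genes 3 rose and 5 fell, with Hmox1 at 1.15 on one side and Epas1, which encodes the HIF-2 alpha subunit, at 6.41 against 64.4 CPM (log2 fold change -3.49, adjusted p = 9.78e-32) on the other. In the tricarboxylic acid cycle 0 of 19 genes rose and 7 fell, and in the pentose phosphate pathway 0 of 7 rose and 3 fell. Il1b, Nos2, Irg1 and Tnf, known LPS targets, rose by 6.36, 7.07, 5.39 and 3.83.

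The lower dose of LPS gave 6 higher and 6 lower members at 24 h, where 5.38% of all genes were higher and 13.2% lower, and a member median of 0.10 against -0.20. Hif1a ranged from 307 to 763 CPM (median 486) in the 7 wells, above all untreated wells (log2 fold change 1.73, SE 0.29, adjusted p = 9.2e-08). Adm ranged from 2.36 to 110.1 CPM (median 21.6) with a log2 fold change of 3.39 (SE 0.41, adjusted p = 5.21e-14). Pfkfb3 ranged from 208 to 603 CPM (median 431), and 6 of 7 wells lay above all untreated wells (log2 fold change 1.96, SE 0.30, adjusted p = 7.93e-09). Slc2a6 and Hk2 also rose, by 1.17 (SE 0.45, adjusted p = 0.0483) and 1.00 (SE 0.35, adjusted p = 0.0274), and so did the pyruvate kinase Pkm, by 0.63. Aldoc (0 to 2.83 CPM, median 1.06), Slc2a3 (0 to 5.63 CPM, median 1.99) and Pfkm (0.244 to 5.66 CPM, median 4.55) lay under the untreated median in all 7 wells, with log2 fold changes of -2.55, -1.91 and -1.38. Egln1 (-0.96), P4ha1 (-0.70) and Mxi1 (-0.63) were the other members that fell. This comparison and that of the higher dose share the untreated wells. A model with plate did not call Pkm and P4ha1, pool in the model did not call Pfkm and Egln1, and without the filter on low values Slc2a6, Hk2, Pfkm and Egln1 were not called. Median-ratio scaling gave 8 higher and 3 lower members, with Pgk1 and Hk3 called as higher and Pfkm, Egln1 and Mxi1 no longer called. Marker medians were 2607 CPM with this dose against 7262 CPM without for microglia, 1.38 against 74.7 CPM for perivascular macrophages, 7.07 against 37.9 CPM for monocytes and 94.7 against 516 CPM for proliferation, and their part in the results was not tested.

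**Figure D2:**
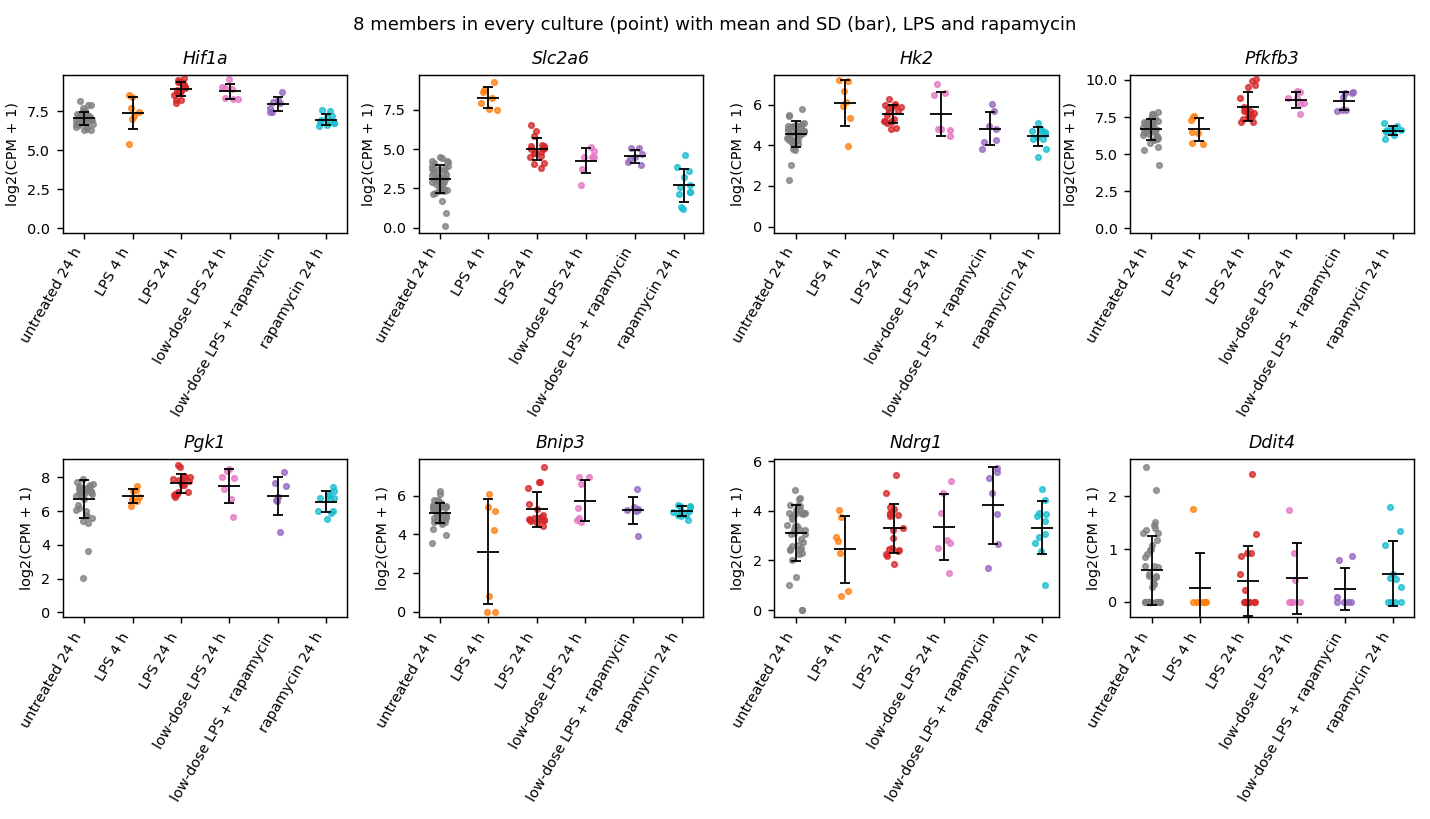
Level of 8 members in every culture (points), with mean and SD (bars), on a log2(CPM + 1) axis for untreated, LPS and rapamycin groups. All 7 wells of LPS at 4 h lie above all untreated wells for Slc2a6, and the wells with rapamycin alone overlap the untreated wells for each of the 8 members.

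After 4 h of LPS 5 of 8 first-stage and 4 of 5 second-stage genes of glycolysis were lower, while Slc2a6, Adm, Hk2 and Pfkp were higher. The difference from 24 h was not tested. Of the 36 members 4 were higher and 16 lower, where 6.82% of all genes were higher and 29.2% lower, and the member median was -0.63 against -0.39. The controls were the untreated wells at 24 h, and with the 14 wells given the chemokines CCL2 or CCL7 for 4 h as controls 20 members were called as well. Median-ratio scaling shifted the median of all genes by 0.16, moved the share of higher genes among all calls from 18.9% to 31.7% and gave 6 higher and 11 lower members. Under it the falls of Gpi1, Gapdh, Eno1, Pkm and Ldha were no longer called, and Slc16a1 and Hif1a became called as higher.

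Slc2a6 ranged from 174 to 613 CPM (median 294) in the 7 wells at 4 h, all above all untreated wells, and its log2 fold change was 5.15 (SE 0.45, adjusted p = 3.41e-26). Adm ranged from 0.474 to 23.5 CPM (median 8.27) (log2 fold change 2.05, SE 0.41, adjusted p = 7.8e-06), and 5 of 7 wells lay above all untreated wells. Hk2 ranged from 14.8 to 149 CPM (median 68.2) (log2 fold change 1.51, SE 0.35, adjusted p = 0.000152), with 1 well under the untreated median. Pfkp, the platelet phosphofructokinase, ranged from 60.2 to 133 CPM (median 79.7) against 14.5 to 69.4 CPM (median 32.2), with 5 of 7 wells above all untreated wells (log2 fold change 1.20, SE 0.25, adjusted p = 2.68e-05). Hif1a did not pass the test at this time, with 204 ± 119 CPM against 138 ± 45.8 CPM (SD, n = 7 and 40 wells) and a log2 fold change of 0.35 (SE 0.29, adjusted p = 0.361).

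Bnip3, which marks mitochondria for removal, ranged from 0 to 67.6 CPM (median 17.8) at 4 h against 10.6 to 75.1 CPM (median 33.5), and its 3 lowest wells lay under all untreated wells while 3 others lay above the untreated median (log2 fold change -1.99, SE 0.42, adjusted p = 2.04e-05). Pfkm ranged from 0 to 6.91 CPM (median 1.72), Egln1 from 0 to 30.8 CPM (median 10.4) and Pdk1 from 0 to 10.7 CPM (median 4.04), with log2 fold changes of -1.77, -1.76 and -1.73, and 3 wells of each lay under all untreated wells. Mxi1, a repressor related to the Myc network, ranged from 43.5 to 76.8 CPM (median 60.6) against 82.4 to 218 CPM (median 121), with no overlap (log2 fold change -1.06, SE 0.18, adjusted p = 1.3e-07). Pgam1 ranged from 233 to 438 CPM (median 283) against 293 to 1129.9 CPM (median 683), all under the untreated median (log2 fold change -1.12, SE 0.20, adjusted p = 4.87e-07). All 20 called members had the same direction on both plates. Among other HIF pathway genes 2 of 21 rose and 11 fell, and 10 of 19 genes of the tricarboxylic acid cycle fell, where 6.82% of all genes were higher and 29.2% lower. Marker medians were 4231 CPM at 4 h against 7262 CPM in untreated wells for microglia, 36.2 against 74.7 CPM for perivascular macrophages, 204 against 516 CPM for proliferation and 24.5 against 49.2 CPM for fibroblasts and pericytes, and their part in the results was not tested.

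By 72 h of LPS, members from the transporters Slc2a1 and Slc2a6 to the enzymes Aldoa, Eno1 and Pkm were higher, while Slc2a3, Aldoc, Pdk1, Hk1 and Egln1 were lower. Of the members 10 were higher and 5 lower, where 5.84% of all genes were higher and 17.9% lower, with a member median of 0.35 against -0.20. Adm ranged from 0 to 77.4 CPM (median 30.02) in 13 wells against 0 to 6.15 CPM (median 0) in 25 untreated wells (log2 fold change 3.53, SE 0.34, adjusted p = 3.28e-21), and 9 of 13 lay above all untreated wells. Slc2a6 ranged from 0 to 45.05 CPM (median 14.998) against 0 to 15.4 CPM (median 0.664) (log2 fold change 2.54, SE 0.37, adjusted p = 7.57e-10), with 6 of 13 above all untreated wells. Hif1a ranged from 60.96 to 1287 CPM (median 322) against 38.6 to 304 CPM (median 127) (log2 fold change 1.36, SE 0.24, adjusted p = 5.22e-07), and 2 of 13 wells lay under the untreated median. Eno1, the main enolase, ranged from 198 to 1094 CPM (median 494) against 80.5 to 589 CPM (median 158), with all 13 wells above the untreated median (log2 fold change 1.31, SE 0.20, adjusted p = 4.29e-09). Some values differed when only middle wells were kept. This also left fewer wells, and position was not separated from plate or pool. In the 3 LPS wells and 10 untreated wells that the table lists as middle wells, an alternative added after the data were seen, Adm was -0.16 and Hif1a -0.39, while Slc2a6 was 1.98 and Eno1 1.99.

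Pfkfb3 rose by 1.18 (SE 0.25, adjusted p = 5.79e-05), Slc2a1 by 1.16 (SE 0.33, adjusted p = 0.00331), and Slc16a3, Pkm, Ankrd37 and Aldoa by 0.95, 0.87, 0.87 and 0.81. Slc2a3 ranged from 0 to 11.2 CPM (median 0.378) against 0 to 41.8 CPM (median 7.43), with 12 of 13 wells under the untreated median (log2 fold change -1.98, SE 0.38, adjusted p = 6.1e-06). Aldoc (0 to 27.9 CPM, median 1.31), Pdk1 (0.377 to 63.7 CPM, median 6.37) and Hk1 (0 to 81.6 CPM, median 38.6) fell by 1.51, 1.05 and 0.98 and overlapped the untreated wells. With plate in the model 19 members were called, and with pool 20. Aldoc and Hk1 were not called with pool in the model, Pdk1 was not with plate, and none of these 3 was in a fit of the compared groups alone. In middle wells all 3 were called, with Aldoc at -3.68, Pdk1 at -1.66 and Hk1 at -1.48. Of the 15 called members 9 had the same direction on each of 4 plates. The others were Aldoc, Pdk1, Hk1 and Egln1, which fell, and Slc16a3 and Ankrd37, which rose. Ero1l, an oxidase of the secretory pathway that HIF also induces, was at 92.6 against 26.7 CPM (log2 fold change 1.79, adjusted p = 3.75e-10), and Epas1 fell by 4.21. Marker sums also moved with LPS at 72 h, with medians against untreated wells of 2329.8 against 5222 CPM for microglia, 1.81 against 35.6 CPM for perivascular macrophages, 3.94 against 11.4 CPM for monocytes, 46.2 against 68.0 CPM for proliferation and 9.68 against 0.609 CPM for neutrophils, and their part in the results was not tested.

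The difference between the effects of LPS at 72 h and at 24 h was tested directly. It passed for 8 members, 7 with a larger log2 fold change at 72 h and 1 with a smaller one, where 6.81% of all genes differed in either direction. Eno1 differed by 1.39 (SE 0.26, adjusted p = 1.72e-05), Pkm by 0.95 (SE 0.19, adjusted p = 5.83e-05), Gpi1 by 0.96 (SE 0.24, adjusted p = 0.00335), and Mxi1, Aldoa and P4ha1 by 0.87, 0.66 and 0.72. Adm differed by 1.46 (SE 0.44, adjusted p = 0.0224), which was -1.69 in middle wells. Hk3, the myeloid hexokinase, had the smaller effect at 72 h, with a difference of -0.95 (SE 0.27, adjusted p = 0.0152). In middle wells Hk3 was -0.32 (limma adjusted p = 0.717) and Aldoa 0.36 (adjusted p = 0.447), so that neither was called, while Mxi1 was 2.52, Eno1 2.21, Gpi1 1.99 and P4ha1 1.42, all called. Aldoa was not called under median-ratio scaling either, P4ha1 was not with plate or pool in the model or under that scaling, and Mxi1 was not with pool. With plate in the model 4 more were called as larger at 72 h: Gapdh (0.91), Pgam1 (0.82), Ldha (0.61) and Pfkm (1.67).

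P3C at 72 h gave the broadest change of the pathway among the main comparisons. Of the 36 members 22 were higher and 0 lower (limma, with 27 at an unadjusted p under 0.05 in either direction), where 6.04% of all genes were higher and 3.15% lower, and the member median was 1.36 against 0.01 over all genes. All 5 second-stage enzymes rose, with a median of 1.59, as did 7 of 9 HIF targets, with a median of 2.48, 5 of 8 first-stage genes and 2 of 5 genes of lactate and pyruvate handling. In each of the transporters, hexokinases and oxygen-sensing genes 1 of 3 rose. All 22 had the same direction on both plates, and 22 members were called in middle wells, where all 6 P3C wells lay.

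Ndrg1, a stress gene strongly tied to low oxygen in many cell types, ranged from 177 to 575 CPM (median 513) in the 6 wells against 0 to 35.4 CPM (median 6.65) in the 25 untreated wells, with no overlap, and its log2 fold change was 6.14 (SE 0.53, adjusted p = 1.05e-25). Adm ranged from 63.8 to 109 CPM (median 101) against 0 to 6.15 CPM (median 0), again with no overlap (log2 fold change 5.92, SE 0.45, adjusted p = 8.62e-32). Egln3, a prolyl hydroxylase that HIF itself induces, ranged from 3.72 to 79.3 CPM (median 53.2) against 0 to 5.03 CPM (median 0.0941), and 5 of 6 wells lay above all untreated wells (log2 fold change 4.47, SE 0.58, adjusted p = 4.27e-12). Vegfa, the blood vessel growth factor, ranged from 14.99 to 51.6 CPM (median 25.5) against 0 to 26.2 CPM (median 1.17), with 3 of 6 wells above all untreated wells (log2 fold change 3.67, SE 0.51, adjusted p = 1.94e-10). Bnip3 ranged from 247 to 372 CPM (median 284) against 23.3 to 118 CPM (median 51.5) without overlap (log2 fold change 2.48, SE 0.46, adjusted p = 4.6e-06). Ddit4, Ankrd37 and Higd1a completed the HIF targets that rose, by 2.69, 2.38 and 1.17. Untreated plate means of Ankrd37 at 72 h were at most 0.302 CPM, so it met the filter on low values mainly through stimulated wells. The calls of Ankrd37 in cultures, which the counts of called members include, are a description. Higd1a was the weakest, with an adjusted p of 0.0454 that became 0.0617 under median-ratio scaling.

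Along the glycolytic chain, Slc2a1, the main glucose transporter of most cells, ranged from 76.6 to 108 CPM (median 92.9) against 0.689 to 23.8 CPM (median 8.65) without overlap (log2 fold change 3.41, SE 0.44, adjusted p = 2.1e-12). Hk2 ranged from 61.98 to 105 CPM (median 71.2) against 0 to 39.03 CPM (median 15.1) without overlap (log2 fold change 2.75, SE 0.39, adjusted p = 3.48e-10). Pfkfb3 ranged from 338 to 469 CPM (median 414) against 8.26 to 171 CPM (median 111), also without overlap (log2 fold change 2.19, SE 0.34, adjusted p = 1.28e-08). The second stage was led by Pgk1, from 206 to 872 CPM (median 737) against 56.5 to 463 CPM (median 182) (log2 fold change 1.86, SE 0.35, adjusted p = 5.44e-06), while the mean of its copy Pgk1-rs7 was 125 CPM with P3C and 161 CPM without. Slc16a3, the exporter of lactate, ranged from 32.1 to 55.2 CPM (median 47.1) against 1.06 to 37.96 CPM (median 6.26), with 5 of 6 wells above all untreated wells (log2 fold change 2.62, SE 0.43, adjusted p = 1.6e-07). Ldha, the lactate dehydrogenase subunit of glycolytic tissues, ranged from 397 to 1162 CPM (median 1058) against 80.7 to 259 CPM (median 147) without overlap (log2 fold change 2.34, SE 0.25, adjusted p = 1.01e-17). Aldoa, Gapdh, Eno1, Pgam1, Pfkl, Pkm, Gpi1 and Tpi1 rose by 1.10 to 2.00. Hif1a did not pass the test, at 215 ± 10.3 CPM against 129.7 ± 53.8 CPM (SD, n = 6 and 25 wells) and a log2 fold change of 0.83 (SE 0.32, adjusted p = 0.0841).

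The 6 wells were 4 on one plate and 2 on another, and the latter were lower for many members. Ndrg1 was 480, 546, 561 and 575 CPM on the plate with 4 wells and 177 and 290 CPM on the other. Ldha was 1035, 1081, 1133 and 1162 CPM against 397 and 455 CPM, and Egln3 51.0, 55.4, 64.5 and 79.3 CPM against 3.72 and 15.8 CPM. The untreated wells of these plates (10 and 5) also differed, with a mean Ldha of 226 and 112 CPM. Within the plates, the log2 difference was 5.75 and 6.03 for Ndrg1, 2.28 and 1.93 for Ldha, 5.49 and 6.13 for Adm, and 4.98 and 2.53 for Egln3. For Hk2 it was 1.54 and 3.69, for Eno1 2.36 and 0.72, and for Pkm 1.76 and 0.53. Against middle untreated wells alone Hk2 was 1.63.

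**Figure D3:**
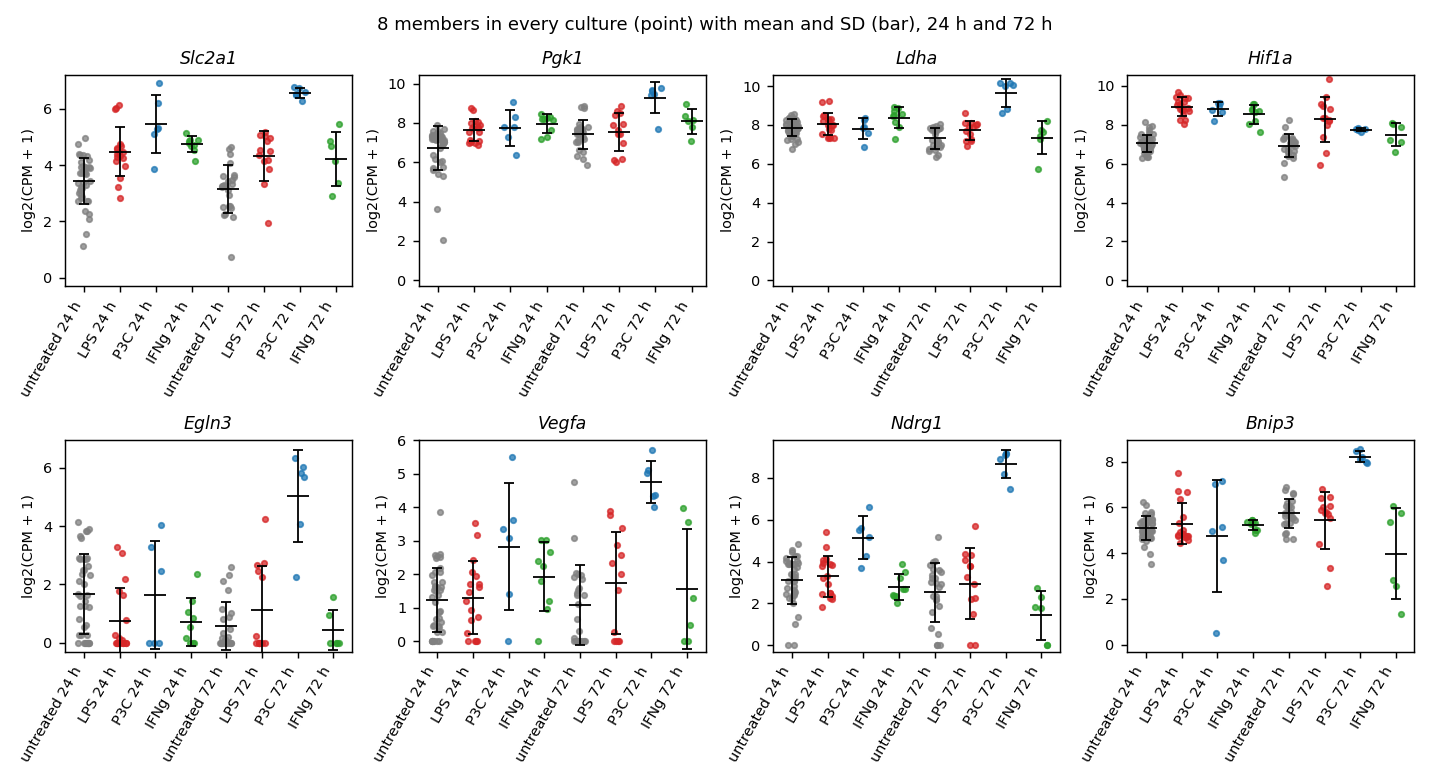
Level of 8 members in every culture (points), with mean and SD (bars), on a log2(CPM + 1) axis for untreated, LPS, P3C and IFNg groups at 24 h and at 72 h. The 6 wells of P3C at 72 h lie above all 25 untreated wells for Slc2a1, Ldha, Ndrg1 and Bnip3, and 2 of the 6 sit apart from the other 4 for Ldha and Egln3.

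Other genes of the HIF pathway also rose with P3C at 72 h. Of 21 tested 6 rose, with Ero1l at 921 against 26.7 CPM (log2 fold change 5.24, adjusted p = 4.59e-42), and 1 fell, Epas1, at 6.38 against 51.1 CPM (log2 fold change -3.19, adjusted p = 8.91e-11). The counts for neighbouring metabolism stand beside 6.04% of all genes higher and 3.15% lower. In the tricarboxylic acid cycle 0 of 19 genes were called (limma, 1 at an unadjusted p under 0.05), in the pentose phosphate pathway 0 rose and 2 fell (Taldo1 by 1.44, G6pdx by 0.88), and of 15 other glycolysis genes 0 rose and 1 fell (Ldhb by 1.36). Of 15 mTOR pathway genes 2 rose, with Eif4ebp1, the brake on translation that mTOR releases, at 140.0 against 49.6 CPM (log2 fold change 1.59, adjusted p = 5.43e-06), and 1 fell, Deptor, at 18.99 against 40.3 CPM (log2 fold change -0.93, adjusted p = 0.0474).

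At 24 h P3C had raised 12 members and lowered 3, where 4.39% of all genes were higher and 19.1% lower, with a member median of 0.39 against -0.28. Adm ranged from 5.64 to 163 CPM (median 47.97) in 6 wells, above all untreated wells (log2 fold change 4.47, SE 0.44, adjusted p = 1.35e-20). Ndrg1 ranged from 12.1 to 96.6 CPM (median 39.9) against 0 to 27.2 CPM (median 8.55), with 4 of 6 above all untreated wells (log2 fold change 2.04, SE 0.51, adjusted p = 0.000734). Slc2a1 ranged from 13.7 to 119 CPM (median 38.4) against 1.18 to 29.9 CPM (median 11.99), with 5 of 6 above (log2 fold change 2.01, SE 0.42, adjusted p = 3.29e-05). Pfkl, the liver phosphofructokinase, ranged from 47.02 to 392 CPM (median 271) against 19.4 to 142 CPM (median 64.4), with 5 wells above all untreated wells and 1 well under their median (log2 fold change 1.79, SE 0.46, adjusted p = 0.00099). Hif1a ranged from 295 to 563 CPM (median 461) with no overlap (log2 fold change 1.75, SE 0.31, adjusted p = 5.25e-07). Slc16a3 ranged from 10.03 to 110.2 CPM (median 26.8) (log2 fold change 1.41, SE 0.42, adjusted p = 0.00544) and Eno1 from 560.3 to 1061 CPM (median 728) (log2 fold change 1.09, SE 0.26, adjusted p = 0.000285). Vegfa, Ddit4, Aldoa, Pgk1 and Pkm also rose, by 1.59, 1.22, 1.22, 1.04 and 0.75.

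Slc2a3 ranged from 0 to 3.36 CPM (median 0.477), with 5 of 6 wells under all untreated wells (log2 fold change -2.65, SE 0.49, adjusted p = 2.27e-06), and Pfkm from 0 to 4.63 CPM (median 0.408), with 4 of 6 (log2 fold change -2.47, SE 0.54, adjusted p = 7.21e-05). Aldoc ranged from 0 to 15.6 CPM (median 2.02) and overlapped (log2 fold change -1.73, SE 0.53, adjusted p = 0.0077). Of 21 other HIF pathway genes 3 rose, led by Ero1l at 1.43 and P4ha2 at 1.33, and 7 fell, led by Bhlhe40 at -3.50, and of 15 other glycolysis genes 0 rose and 7 fell. Hk2 did not pass the test, at 32.6 ± 11.8 CPM (SD, n = 6) and a log2 fold change of 0.45 (SE 0.37, adjusted p = 0.447). Of the 15 called members 14 had the same direction on both plates, the other being Slc16a3. Median-ratio scaling gave 16 higher members, adding Gapdh, Pfkp, Slc2a6 and Tpi1. In the 2 P3C wells listed as middle wells Pfkl was 0.62, Slc16a3 0.11, Slc2a1 1.26, Ndrg1 1.60 and Eno1 0.68, and these were not called. Both wells lay on the same plate, so this subset left out the P3C wells of the other plate as well as edge wells. The 5 neutrophil markers summed to 1.88 to 83.7 CPM (median 18.8) with P3C at 24 h against 0 to 9.18 CPM (median 1.38) without, with Ngp and Retnlg at 0 in all P3C wells, and their part in the result was not tested.

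The effects of P3C at 72 h and 24 h differed for 12 members, all with the larger log2 fold change at 72 h, where 9.62% of all genes differed, and the median difference was 1.29 over the members and 0.36 over all genes. Egln3 differed by 4.51 (SE 0.80, adjusted p = 4.97e-06), Ndrg1 by 4.09 (SE 0.74, adjusted p = 6.43e-06), Bnip3 by 2.83 (SE 0.64, adjusted p = 0.000631), Pfkfb3 by 2.72 (SE 0.47, adjusted p = 2.25e-06) and Ldha by 2.40 (SE 0.34, adjusted p = 3.5e-09). Hk2 (2.30), Vegfa (2.08), Ankrd37 (1.82), Pgam1 (1.61) and Ddit4 (1.47) also differed, as did Slc2a3 (2.76) and Pfkm (2.30), which had fallen at 24 h. In middle wells, which held all P3C wells at 72 h and 2 of the 6 at 24 h (both on the same plate), 5 of the 12 were not called: Pfkfb3 was 1.28 (limma adjusted p = 0.162), Hk2 1.34 (0.223), Pfkm 1.86 (0.343), Slc2a3 2.68 (0.0718) and Ddit4 -0.15 (0.955). There Bnip3 was 4.86 and Vegfa 3.58. With plate in the model, and under median-ratio scaling, Pfkm, Vegfa and Ddit4 were not called, while with plate Gpi1 (1.06), Gapdh (0.84) and Eno1 (0.86) were called as larger and Hif1a (-1.49, adjusted p = 0.0129 by limma) as smaller at 72 h. With pool in the model Hk2 was not called either. All 72 h wells were of 1 lot and the P3C wells at 24 h of 2.

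P3C and LPS act on related receptors, and their wells were compared directly at 24 h. With P3C 10 members were higher and 1 lower than with LPS, where 2.80% of all genes were higher and 8.07% lower. Adm (2.41, SE 0.47, adjusted p = 2.07e-05), Ndrg1 (1.85, SE 0.55, adjusted p = 0.012), Slc16a3 (1.53, SE 0.45, adjusted p = 0.0113) and Vegfa (1.52, SE 0.53, adjusted p = 0.0419) had the largest log2 fold changes upward. Ddit4, Eno1, Aldoa, Gpi1, Pkm and Mxi1 were higher by 0.72 to 1.42. Pfkfb3 was the exception. It ranged from 8.48 to 173 CPM (median 107) with P3C against 139 to 1078 CPM (median 238) with LPS, and 5 of 6 P3C wells lay under all LPS wells (log2 fold change -2.05, SE 0.35, adjusted p = 5.71e-07). The Hif1a difference was -0.14 (SE 0.33, adjusted p = 0.923), so a difference in Hif1a level was not detected. With the 2 middle wells of P3C, which lay on the same plate, 5 members were called. Among those not called, Ndrg1 was 1.43 (limma adjusted p = 0.325), Slc16a3 0.57 (0.760), Eno1 0.90 (0.140), Vegfa -0.17 (0.981) and Pfkfb3 -1.27 (0.0678). A model with plate did not call Gpi1 and Slc16a3. Nos2, an LPS target whose product makes nitric oxide, was lower with P3C, with a log2 fold change of -8.16.

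With IFNg, the largest rises were those of Pfkp and Hk3 at 24 h and of Hk3 and Pfkfb3 at 72 h, which are kinases of the first steps of glycolysis or, for Pfkfb3, of their control. At 24 h 8 members were higher and 2 lower, where 6.16% of all genes were higher and 5.16% lower, with a member median of 0.22 against -0.04. Pfkp ranged from 135 to 159 CPM (median 145) in 9 wells against 14.5 to 69.4 CPM (median 32.2), with no overlap (log2 fold change 2.03, SE 0.23, adjusted p = 6.1e-16). Hk3 ranged from 777 to 3056 CPM (median 1124) against 179.7 to 1481 CPM (median 387), all above the untreated median (log2 fold change 1.69, SE 0.23, adjusted p = 2.85e-11). Hif1a ranged from 199 to 532 CPM (median 416), with 7 of 9 wells above all untreated wells (log2 fold change 1.49, SE 0.26, adjusted p = 5.89e-07). Slc2a1 ranged from 16.8 to 34.03 CPM (median 26.9), all above the untreated median (log2 fold change 1.30, SE 0.35, adjusted p = 0.00376).

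Pgk1 (142 to 344 CPM, median 292) rose by 1.25 (SE 0.28, adjusted p = 0.000288) and Hk2 by 1.11 (SE 0.32, adjusted p = 0.00635). Pdha1, a subunit of pyruvate dehydrogenase, which uses pyruvate inside mitochondria, ranged from 26.1 to 45.8 CPM (median 30.7) against 0.338 to 37.9 CPM (median 16.98). It was called here (log2 fold change 1.04, SE 0.31, adjusted p = 0.0116) but not with plate or with pool in the model, and in no other of the 13 comparisons. Pkm rose by 0.51. Aldoc (0 to 6.47 CPM, median 1.67) fell by 1.90 and Mxi1 (50.7 to 115 CPM, median 92.6) by 0.56, all 9 wells under the untreated median for both. No HIF target other than Mxi1 passed the test. All 10 called members had the same direction on each of 3 plates. In the tricarboxylic acid cycle 2 of 19 genes rose, among them citrate synthase Cs by 1.06, and 1 fell. Of 21 other HIF pathway genes 1 rose, Cited2, which competes with HIF for a coactivator, at 2.36, and 5 fell, with Epas1 at -1.61.

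At 72 h of IFNg 5 members were higher and 2 lower, where 6.01% of all genes were higher and 9.90% lower, with a member median of 0.01 against -0.12. Hk3 ranged from 1036 to 2218 CPM (median 1483) in 6 wells against 257 to 1114 CPM (median 478) (log2 fold change 1.64, SE 0.28, adjusted p = 5.18e-07), and 4 of 6 lay above all untreated wells. Pfkfb3 ranged from 78.1 to 477 CPM (median 329.6), with 5 of 6 above all untreated wells (log2 fold change 1.52, SE 0.34, adjusted p = 0.000218). Hk2 ranged from 6.96 to 49.3 CPM (median 30.4) (log2 fold change 1.27, SE 0.39, adjusted p = 0.0114) and Pfkp from 56.9 to 102 CPM (median 68.01) against 13.7 to 85.7 CPM (median 33.7) (log2 fold change 1.03, SE 0.28, adjusted p = 0.0037), and Pkm rose by 0.57. Bnip3 ranged from 1.55 to 65.3 CPM (median 23.1) (log2 fold change -1.75, SE 0.46, adjusted p = 0.00235) and Hk1 from 0 to 73.5 CPM (median 47.6) (log2 fold change -1.10, SE 0.37, adjusted p = 0.0229), each with wells on both sides of the untreated median. These falls did not hold in the 2 middle wells, where Bnip3 was 0.10 and Hk1 0.25, and Hk2 at 0.88 and Pfkp at 1.22 were not called there. Bnip3 was the 1 member whose IFNg effect differed between times, by -1.89 (SE 0.59, adjusted p = 0.041), where 4.26% of all genes differed, and it was not called in middle wells or under median-ratio scaling. With plate in the model Hk1 (-1.47), Hif1a (-1.29) and Pfkp (-1.07) were called as well. The perivascular macrophage markers had medians of 6.29 CPM with IFNg against 35.6 CPM without at 72 h and of 20.9 against 74.7 CPM at 24 h, the microglia markers of 4414.9 against 5222 CPM and 4336 against 7262 CPM, and the proliferation markers of 19.5 against 68.0 CPM at 72 h. The part of these shifts in the results was not tested.

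Rapamycin blocks mTOR, a kinase that can raise HIF translation and glycolysis, and the question was whether it moved the members alone or beside LPS. With rapamycin alone 0 of 36 members were called in either direction (limma, 4 at an unadjusted p under 0.05), where 0.106% of all genes were higher and 0.0708% lower. The 4 were Vegfa, with 4.77 ± 4.24 CPM against 1.99 ± 2.45 CPM (SD, n = 11 and 40 wells, log2 fold change 0.86, SE 0.38, adjusted p = 0.652), Pfkp (-0.58, SE 0.21, adjusted p = 0.421), Hk3 (-0.46, SE 0.21, adjusted p = 0.695) and Pgam1 (-0.39, SE 0.17, adjusted p = 0.598). For Pgam1 10 of 11 wells lay under the untreated median. The proliferation markers summed to 65.97 to 271 CPM (median 185) in these wells.

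Added to the low dose of LPS, rapamycin gave 0 of 36 calls as well (limma, 4 at an unadjusted p under 0.05), where 0.124% of all genes were higher and 0.0885% lower. Hif1a ranged from 172 to 428 CPM (median 266) with rapamycin and 307 to 763 CPM (median 486) with LPS alone, and 6 of 7 wells with rapamycin lay under all 7 LPS wells, but the test across all genes was not passed (log2 fold change -0.81, SE 0.37, adjusted p = 0.877). Pfkp ranged from 10.1 to 24.8 CPM (median 15.5) against 6.36 to 45.04 CPM (median 34.3) (-0.73, SE 0.33, adjusted p = 0.839), and Pkm and Slc16a1 differed by -0.60 (SE 0.23, adjusted p = 0.565) and -1.30 (SE 0.55, adjusted p = 0.731). With library pool in the model 1 member was called, Pkm, as lower. Hmox1, heme oxygenase, was the 1 other HIF pathway gene called, at 324 against 1476 CPM (log2 fold change -2.23, adjusted p = 2.63e-06). The effect of rapamycin did not differ detectably between wells with and without LPS, with 0 members called (limma, 0 at an unadjusted p under 0.05), where 0.0413% of all genes differed. These counts do not show that rapamycin left the members unchanged. Of 15 mTOR pathway genes 0 were called with rapamycin alone (limma, 1 at an unadjusted p under 0.05) and 0 with LPS (2 at an unadjusted p under 0.05).

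In mice, LPS after 4 h raised the transporters Slc2a1 and Slc2a3, the regulator Pfkfb3 and Ldha, and lowered Pdk1, Bnip3, P4ha1 and 3 second-stage enzymes. Of 31 members that passed the filter on low values 5 were higher and 6 lower, where 8.79% of the 9012 genes tested were higher and 13.6% lower. The 5 include the mTOR inhibitor gene Ddit4, which met the filter only through the LPS mice and whose call is a description. The members had a median of -0.21 against -0.19. Median-ratio scaling shifted the median of all genes by 0.15 and moved the share of higher genes among all calls from 39.3% to 62.7%, and under it Gapdh, Pgam1, Eno1 and P4ha1 were no longer called.

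Pfkfb3 was 207, 161, 233 and 218 CPM in the PBS mice and 734, 645, 796 and 700 CPM in the LPS mice, with no overlap (log2 fold change 1.81, SE 0.14, adjusted p = 1.88e-07). Slc2a1 was 17.7, 8.80, 27.9 and 18.4 CPM against 52.1, 65.1, 70.6 and 54.1 CPM, again without overlap (log2 fold change 1.77, SE 0.26, adjusted p = 0.000218). Ldha was 66.5, 45.8, 77.0 and 81.5 CPM against 157, 162, 171 and 118 CPM, without overlap (log2 fold change 1.17, SE 0.18, adjusted p = 0.000368). Ddit4 was 2.55, 4.91, 4.55 and 15.9 CPM against 21.2, 13.5, 13.3 and 15.997 CPM, where 1 PBS mouse lay above 2 LPS mice (log2 fold change 1.33, SE 0.38, adjusted p = 0.0242). Above 5 CPM were 4 LPS mice and 1 PBS mouse, and the filter asked for 4. Slc2a3, which fell in the LPS cultures, was 27.7, 26.6, 34.1 and 23.5 CPM against 47.6, 44.0, 53.2 and 39.99 CPM (log2 fold change 0.71, SE 0.17, adjusted p = 0.00718). The difference of its direction between cultures and mice was not tested, since the tables were normalized separately.

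Pdk1 was 86.2, 70.8, 104 and 69.7 CPM with PBS and 43.6, 33.7, 33.95 and 29.2 CPM with LPS, without overlap (log2 fold change -1.21, SE 0.17, adjusted p = 0.000155). Bnip3 was 36.3, 43.0, 46.9 and 41.6 CPM against 26.4, 23.6, 25.2 and 26.95 CPM (-0.69, SE 0.15, adjusted p = 0.00501). P4ha1 was 105, 88.5, 88.6 and 72.4 CPM against 61.7, 57.4, 63.4 and 60.2 CPM (-0.53, SE 0.14, adjusted p = 0.0167), and Eno1 101, 112, 116 and 98.9 CPM against 83.4, 79.9, 73.6 and 81.8 CPM (-0.42, SE 0.13, adjusted p = 0.0297), all without overlap. Hif1a did not pass the test (log2 fold change 0.10, SE 0.21, adjusted p = 0.748). Leaving out single mice, Ddit4 was no longer called without LPS mouse 1 or 4 or PBS mouse 1, 2 or 3, Eno1 without LPS mouse 2 or 3 or PBS mouse 2 or 3, and P4ha1 without PBS mouse 1, and the number of called members went from 11 to 7 without PBS mouse 1 or 2. Adm and Slc2a6, which rose in the LPS cultures, were too low to be tested. Adm was 0.392, 0, 2.18 and 0.145 CPM with PBS and 5.66, 8.55, 6.86 and 4.87 CPM with LPS, and Slc2a6 was 1.77, 0.722, 1.58 and 1.01 CPM against 6.299, 8.55, 4.82 and 9.22 CPM, so the LPS mice lay above the PBS mice for both. Vegfa, Egln3 and Ankrd37 were not tested either.

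The microglia markers summed to 48099.5 to 59978 CPM (median 56916) with PBS and 51173 to 56787 CPM (median 56044) with LPS, and did not set the groups apart. The 5 neutrophil markers summed to 80.9 to 148 CPM (median 97.8) with PBS and 178 to 326 CPM (median 287) with LPS, and the 4 monocyte markers to 20.2 to 45.9 CPM (median 38.2) and 43.9 to 96.6 CPM (median 79.8). The 3 erythrocyte markers reached 5561.5 CPM in 1 LPS mouse, where the PBS mice reached 229 CPM. The 4 proliferation markers summed to 42.4 to 50.9 CPM (median 47.8) with PBS and 25.9 to 33.9 CPM (median 29.2) with LPS, without overlap. The 5 oligodendrocyte markers summed to 455 to 1417 CPM (median 901) and 302 to 932 CPM (median 440.4), and the 4 neuron markers to 36.1 to 101 CPM (median 81.8) and 35.6 to 100.3 CPM (median 40.6), with overlap. The part of these shifts in the members' changes was not tested. Vhl, whose product marks HIF for destruction, was at 56.2 against 122 CPM (log2 fold change -1.10, adjusted p = 0.000114). Of 19 tricarboxylic acid cycle genes 0 were called (limma, 3 at an unadjusted p under 0.05), and of 7 pentose phosphate genes 0 rose and 3 fell, where 8.79% of all genes were higher and 13.6% lower.

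**Figure D4:**
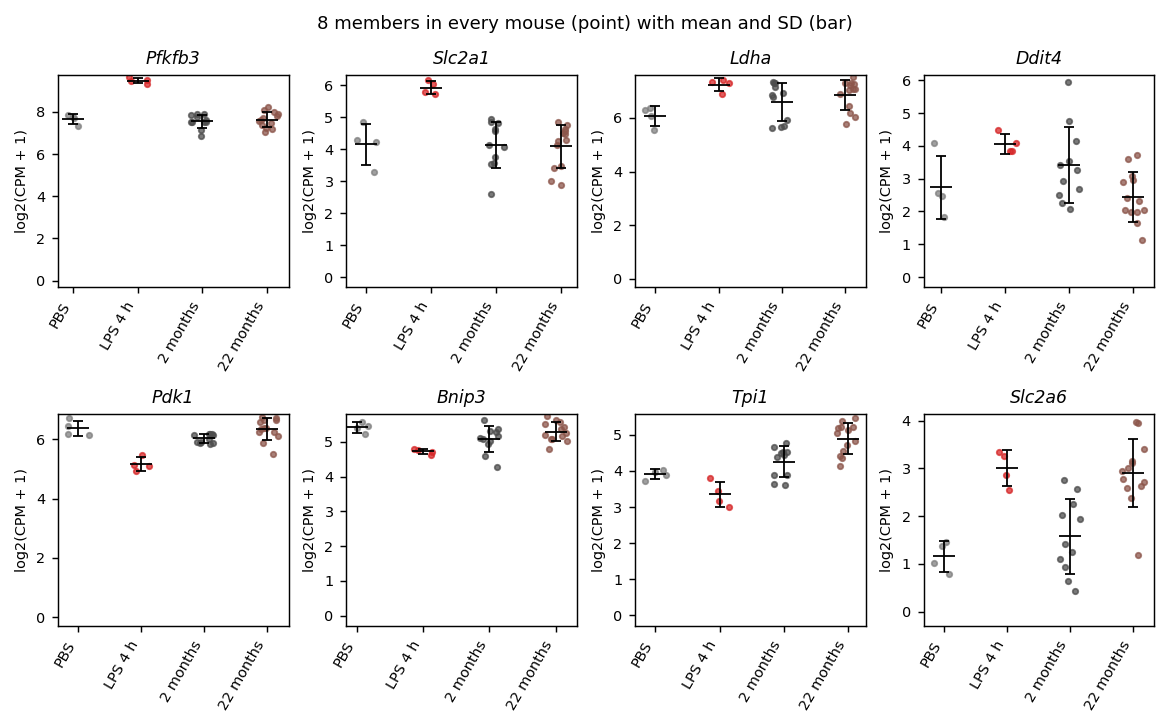
Level of 8 members in every mouse (points), with mean and SD (bars), on a log2(CPM + 1) axis for mice given PBS or LPS and for untreated mice of 2 and 22 months. The LPS mice lie above the PBS mice for Pfkfb3, Slc2a1 and Ldha and below them for Pdk1 and Bnip3, and the 2 ages overlap for Tpi1 and Slc2a6.

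With age, 2 of 32 tested members were higher and 0 lower, where 2.50% of the 9632 genes tested were higher and 0.737% lower (limma, with 9 members at an unadjusted p under 0.05 in either direction), and the member median was 0.18 against 0.03. Slc2a6 ranged from 1.27 to 14.6 CPM (median 6.73) in 13 mice of 22 months against 0.361 to 5.72 CPM (median 1.67) in 11 of 2 months, and 8 of 13 lay above all young mice (log2 fold change 1.33, SE 0.30, adjusted p = 0.00993). Above 5 CPM were 11 of the older and 1 of the young mice, so Slc2a6 met the filter on low values (11 mice) only through the group in which it was higher, and its call is a description. Tpi1, the triose isomerase, ranged from 16.4 to 42.98 CPM (median 32.4) against 11.3 to 26.4 CPM (median 20.6), also with 8 of 13 above all young mice (log2 fold change 0.64, SE 0.17, adjusted p = 0.0372).

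The mice carried 2 experiment labels, called batches here, whose levels differed. What set the experiments apart is not given. With batch in the model 10 members were called, 9 higher (Slc2a6, Slc2a3, Gpi1, Tpi1, Aldoa, Pkm, Eno1, Pfkl and Gapdh) and P4ha1 lower, where 6.95% of all genes were higher and 3.81% lower. Aldoa, the main aldolase, had a mean of 190 CPM at 22 months and 133 CPM at 2 months in the first batch (4 and 4 mice) and of 459 and 299 CPM in the second (9 and 7 mice). Pkm had means of 542 and 367 CPM in the first and 1370 and 1020 CPM in the second, and Slc2a6 of 4.31 and 3.04 CPM in the first and 8.64 and 2.03 CPM in the second. The first batch alone gave 0 calls (limma, 9 at an unadjusted p under 0.05), where 0.208% of all genes were higher and 0.0208% lower, and the second gave 9, all higher, where 6.12% were higher and 3.53% lower. The neutrophil markers summed to 317 to 4018 CPM (median 1174) at 22 months and 147 to 1200.1 CPM (median 572) at 2 months, and the monocyte markers to 57.7 to 311 CPM (median 135) and 36.1 to 118 CPM (median 70.4). Their part in the result was not tested.

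Across the whole panel, the members were compared with untreated wells of the same time (24 h for the 4 h conditions) in 95 stimulated conditions with at least 2 cultures, all of which share those wells. In 22 conditions no member was called by limma, in 24 there were 1 to 3, in 20 there were 4 to 9, and in 29 there were 10 or more. The 3 conditions with most calls held P3C at 72 h, alone (22) or in a mixture. TNFa with P3C gave 26 (24 higher, 2 lower, where 19.9% of all genes were called), led by Adm at 6.31, Ndrg1 at 6.20, Egln3 at 4.59, Vegfa at 4.04 and Slc2a1 at 3.93. TNFa with P3C and PGE2, a prostaglandin, gave 24 (23 higher, 1 lower, of 12.2% of all genes), led by Adm at 4.90, Ndrg1 at 4.74 and Vegfa at 4.15, and there Hif1a rose by 2.01. The other 2 conditions with P3C at 72 h gave fewer, 13 for P3C with PGE2 (where 8.98% of all genes were called) and 14 for TNFa, P3C and PGE2 with IFNb (12.3%).

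The lower dose of LPS for 72 h gave 19 (16 higher, 3 lower, of 11.4% of all genes), with Vegfa and Adm each at 2.10 and Slc2a6 at 2.04. The same dose with IFNg for 72 h gave 17 (16 higher, 1 lower, of 13.1% of all genes), with Slc2a6 at 2.75, Vegfa at 2.00, Pfkfb3 at 1.99 and Hk3 at 1.84. LPS with norepinephrine for 4 h gave 18 (9 higher, 9 lower, of 29.2% of all genes), with Slc2a6 at 5.35, Hk2 at 2.54, Ndrg1 at 2.52 and Pfkfb3 at 2.17. MPP at 100 uM, 1-methyl-4-phenylpyridinium, which blocks the first complex of the mitochondrial respiratory chain, gave 9 at 24 h (6 higher, 3 lower, of 7.38% of all genes), with Ndrg1 at 2.37, Vegfa at 2.28, Slc2a1 at 1.43, the lactate transporter Slc16a1 at 1.34 and Hk2 at 1.28 higher, and Slc2a6 at -1.41, Hk3 at -0.95 and Pkm at -0.57 lower. At 72 h MPP gave 4 (1 higher, 3 lower, of 8.58% of all genes) and 0 with library pool in the model. Resveratrol at 50 uM gave 0 at 24 h (0.868% of all genes) and, with the lower dose of LPS, 6 (5 higher, 1 lower, of 12.9% of all genes), with Adm at 3.38, Slc2a6 at 2.38 and Hif1a at 1.00. Untreated wells at 72 h against 24 h gave 12 (2 higher, 10 lower, of 21.1% of all genes), and since no plate held untreated wells of both times, plate and time cannot be told apart there.

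**Figure D5:**
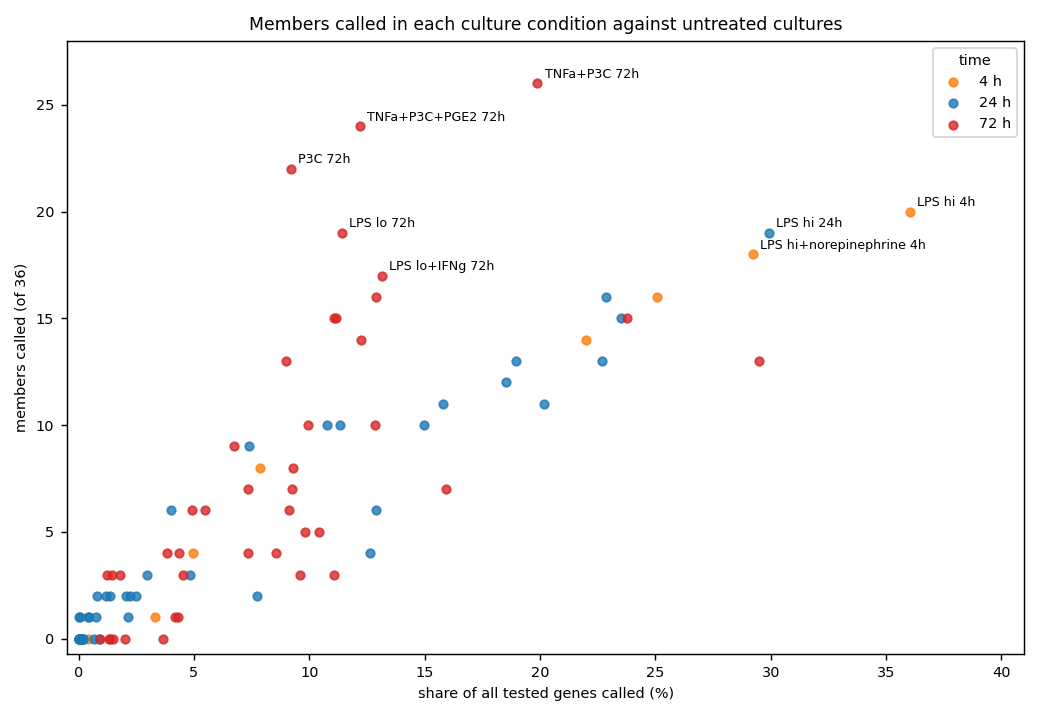
Members called (of 36, vertical axis) against the share of all tested genes called in percent (horizontal axis) for each stimulated condition with at least 2 cultures, coloured by time. The 3 conditions with P3C at 72 h and most calls hold 22, 24 and 26 members at 9.20% to 19.9% of genes, while LPS at 4 h holds 20 at the highest share.

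The members differed in how often they moved. Over the 95 stimulated conditions Hk2 was higher in 33 and lower in 2, Slc2a6 in 28 and 2, Pfkfb3 in 26 and 3, Eno1 and Pkm each in 26 and 6, Adm in 23 and 0, Vegfa in 21 and 0, Hif1a in 21 and 4, Slc2a1 in 20 and 2, Aldoa in 18 and 4, Ndrg1 in 17 and 1 and Ldha in 17 and 3. Slc2a3 went the other way, with 0 higher and 23 lower, as did Aldoc with 1 and 22, Pdk1 with 1 and 14, Mxi1 with 2 and 13, Pgam1 with 4 and 13 and Pfkm with 0 and 12. Hk3 was higher in 14 and lower in 14. The highest mean of Hif1a, 1387 CPM, was with TNFa and PGE2 at 72 h. The pair whose mean log2(CPM + 1) levels were most alike over 97 conditions, the untreated wells of both times included, was Slc2a1 and Aldoa (r = 0.78), then Gapdh and Eno1 (0.76), Tpi1 and Pgk1 (0.72), Pdk1 and Egln1 (0.71) and Bnip3 and Egln3 (0.68). The most opposed were Slc2a3 and Adm (-0.54) and Slc2a6 and Mxi1 (-0.53). These values are a description, since the conditions share untreated wells, plates and depth.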

How the data were processed

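RNA of 784 microglia cultures and 32 mice was sequenced from the 3′ ends of transcripts. The authors counted reads with Salmon 0.7.1 against Ensembl transcripts, summed all isoforms of a gene, divided by mapped reads and deposited CPM values without division by transcript length, after leaving out shallow libraries. The submitters' processing notes name the build mm8. The study's methods call the unit TPM, but no length correction is described, so levels were not compared between genes. No counts were used: 70.2 to 89.0% of low values per culture and 79.4 to 87.3% per mouse came out as whole reads (values up to 20.5 reads, within 0.1 of a read), and depth was estimated from the same steps.

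Values were analysed as log2(CPM + 1) in R 4.3.3 with limma 3.58.1 (lmFit, contrasts.fit, eBayes with trend), 1 coefficient per condition over all 784 cultures, and separately over the 8 LPS mice and the 24 untreated mice. Genes above 5 CPM in at least 4 cultures, 4 LPS mice or 11 aging mice were tested, and called at a Benjamini-Hochberg adjusted p under 0.05 over all genes tested. The script was tested on simulated data. All 36 members were named where useful. Values per sample were given for up to 4 called members with the largest rise and up to 4 with the largest fall among those with a mean of at least 5 CPM in the higher group, and for the member leading each role. Of other lists, up to 2 members each way were named, with known LPS targets as checks. In the panel, the 5 conditions with most calls outside the main comparisons, MPP and resveratrol were named, and other P3C conditions after their values were seen. The members, lists and tests were chosen with earlier results of these data known. Alternatives were a pseudocount of 5, no filter, median-ratio scaling, plate, pool or batch in the model, only the groups compared, other 4 h controls, single mice or batches left out, and middle wells only. Figures used Python 3.11.15 and matplotlib 3.10.9.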

Additional observations from a re-analysis of the deposited data

Results flagged for a closer look

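Among 95 groups of 4 to 10 samples examined for a sample far from the others, 4 had one, and chance flags about 1 in 20 such groups. The lowest P3C well at 24 h had 47.0 CPM of Pfkl, where the next had 191 CPM and the group median was 271 CPM. The lowest well of low-dose LPS at 24 h had 6.36 CPM of Pfkp, where the next had 22.0 CPM and the median was 34.3 CPM. The lowest P3C well at 72 h had 206 CPM of Pgk1, where the next had 695 CPM and the median was 737 CPM. The lowest IFNg well at 72 h had 0 CPM of Egln1, where the next had 18.6 CPM and the median was 20.97 CPM.

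The effect of a stimulus differed between 72 h and 24 h, by a test of the difference itself, for 8 members with LPS, 12 with P3C and 1 with IFNg.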

How the results depend on the processing

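Of 119 counts of called members under an alternative, 101 lay within 1.5 times the reported count. For P3C against LPS at 24 h (11 members called), fitting only the groups compared gave 7 and middle wells gave 5. For IFNg at 72 h (7 called) the same alternatives gave 4 and 2. For rapamycin with low-dose LPS (0 called), pool in the model gave 1. For mouse LPS (11 called), median-ratio scaling gave 7, and leaving out 1 mouse at a time gave 7 to 10, with 7 without PBS mouse 1 or without PBS mouse 2. For age (2 called), batch (the experiment label) in the model gave 10, median-ratio scaling 5, no filter 1, the first batch alone 0 and the second alone 9. For the difference of IFNg effects (1 called), plate gave 4, pool 2, a pseudocount of 5 gave 2, and median-ratio scaling and middle wells each gave 0. The cause of these shifts was not tested, apart from the fewer samples that some alternatives hold by construction.

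Of 1004 values of single members under alternatives, 900 kept their direction and side of the threshold, 82 fell short of it, 11 passed it and 11 reversed. In middle wells, the reversed values were Vegfa at -0.17 and Egln3 at -0.56 (P3C against LPS), Adm at -0.16 and Hif1a at -0.39 (LPS 72 h), Bnip3 at 0.10 and Hk1 at 0.25 (IFNg 72 h), Adm at -1.69 (difference of LPS effects) and Ddit4 at -0.15 (difference of P3C effects). Egln3 was 0.084 with rapamycin with pool in the model, and Hif1a was -0.026 and Hk1 -0.10 with age in the first batch. Middle wells, and pool, a pseudocount of 5 and no filter for the differences of effects, were chosen after seeing the data. No paired analysis was possible because the replicate numbers follow accession order and name no shared source. Depth limits members near or under 5 CPM, such as Adm, Egln3, Vegfa and Ankrd37 in untreated wells.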
